A study of Homo sapiens with 6 samples.

Results

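The nuclear genes of the mitochondrial respiratory complexes I, III, IV and V were followed in WM164, a human melanoma line from a lymph node metastasis whose labels give a mutated BRAF. The members are the 85 genes, of 18417 tested, whose platform annotation gave a single symbol beginning with NDUFA, NDUFB, NDUFC, NDUFS, NDUFV, UQCR, COX4 to COX8, ATP5F, ATP5M or ATP5P. They comprise 34 subunit genes of complex I, 7 assembly factor genes of complex I, 7 genes of complex III, 17 of complex IV and 17 of complex V. The other 3 are the pseudogenes UQCRBP1 and ATP5F1EP2 and the divergent transcript NDUFV1-DT, which encode no subunit. A gene with several probe sets is represented by its brightest, by the mean of all 6 arrays.

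Induced drug tolerant cells (IDTC, 3 samples) had spent 16 days in 500 nM PLX4032, the BRAF inhibitor vemurafenib, and Parent cells (3 samples) had received the vehicle DMSO. Both groups are the same line, a single tumour's cells in culture, and the labels found here give no length for the DMSO treatment. The samples were kept in triplicate and extracted one by one, but whether the cultures were independent is not said. Each p-value therefore reflects only how far these particular samples scatter, which may be technical. In bulk RNA, fewer cells of a kind and less RNA per cell cannot be told apart, and the normalized values do not show the total RNA of a cell. The melanocyte lineage markers MLANA, PMEL, TYR, SOX10, MITF and S100B lay between 10.06 and 13.43 log2 on every array. Of these 6, MLANA, PMEL, TYR and SOX10 rose (MLANA by 1.45 ± 0.05), S100B fell by 0.85 ± 0.07 and MITF was not called (-0.04 ± 0.06). Their summed log2 levels were 69.6 to 70.3 on IDTC arrays and 66.4 to 66.7 on Parent arrays, and the part of this difference in the results below was not tested. The 4 measured immune markers (PTPRC, CD3E, MS4A1 and CD14) lay between 3.62 and 5.64 log2, with summed levels of 17.99 to 18.73 on IDTC and 17.61 to 18.10 on Parent arrays, and MS4A1 rose (0.37 ± 0.12). Of the 3 fibroblast markers (COL1A1, DCN and LUM) LUM fell by 0.89 ± 0.14, and their summed levels were 18.14 to 18.40 on IDTC and 18.94 to 19.21 on Parent arrays. None of the 3 endothelial and 3 keratinocyte markers was called, and their summed levels overlapped between the groups. The part of the immune and fibroblast markers in the results below was not tested.

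Oxidative phosphorylation passes electrons from NADH through complex I, ubiquinone, complex III and cytochrome c to complex IV, which reduces oxygen. Complexes I, III and IV pump protons across the inner mitochondrial membrane, and complex V, the ATP synthase, uses the return flow of protons to make ATP. Most subunits are encoded in the nucleus, some core subunits are encoded in mitochondrial DNA, and the products of both genomes have to be assembled together. In melanoma, respiration is known to depend in part on the coactivator PPARGC1A and its regulator MITF.

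More genes of the complexes fell than rose in IDTC against Parent cells, by small amounts. Of the 85 members, 40 fell (47.1%) and 5 rose (5.88%), and 40 were not called. The fold change was negative for 65 members and positive for 20. Over all genes tested, 24.9% fell and 21.7% rose. Called means an adjusted p under 0.05 in limma with Benjamini-Hochberg adjustment over all 18417 genes, which holds for every call below, and 46.6% of all genes were called. Fold changes are IDTC minus Parent on the log2 scale of the array values, with their standard errors. The median log2 fold change was -0.14 over the members and -0.01 over all genes. Only 1 member, NDUFAF4, was called at 2-fold or more, where 5.40% of all genes fell and 3.81% rose by that much. The groups did not overlap for 57 members (67.1%) and for 54.1% of all genes.

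The same comparison among brighter genes gave a higher background. When the dimmest 40% of genes were left out, 77 members remained, of which 41 fell (53.2%) and 8 rose (10.4%), against 39.6% and 29.6% of the 11050 genes then tested. After re-centring the arrays on their medians 37 members fell and 9 rose, where 21.8% and 26.3% of all genes did. After quantile normalization between the arrays 37 members fell and 10 rose, where 23.9% and 24.5% of all genes did. The 5 genes that rose were NDUFA10, NDUFA2, NDUFS7, NDUFAF3 and COX7A2L. The number that rose was 3 without IDTC 2, without Parent 2 or without Parent 3. Of all genes 18.6%, 18.25% and 18.46% rose in these fits.

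**Figure D1:**
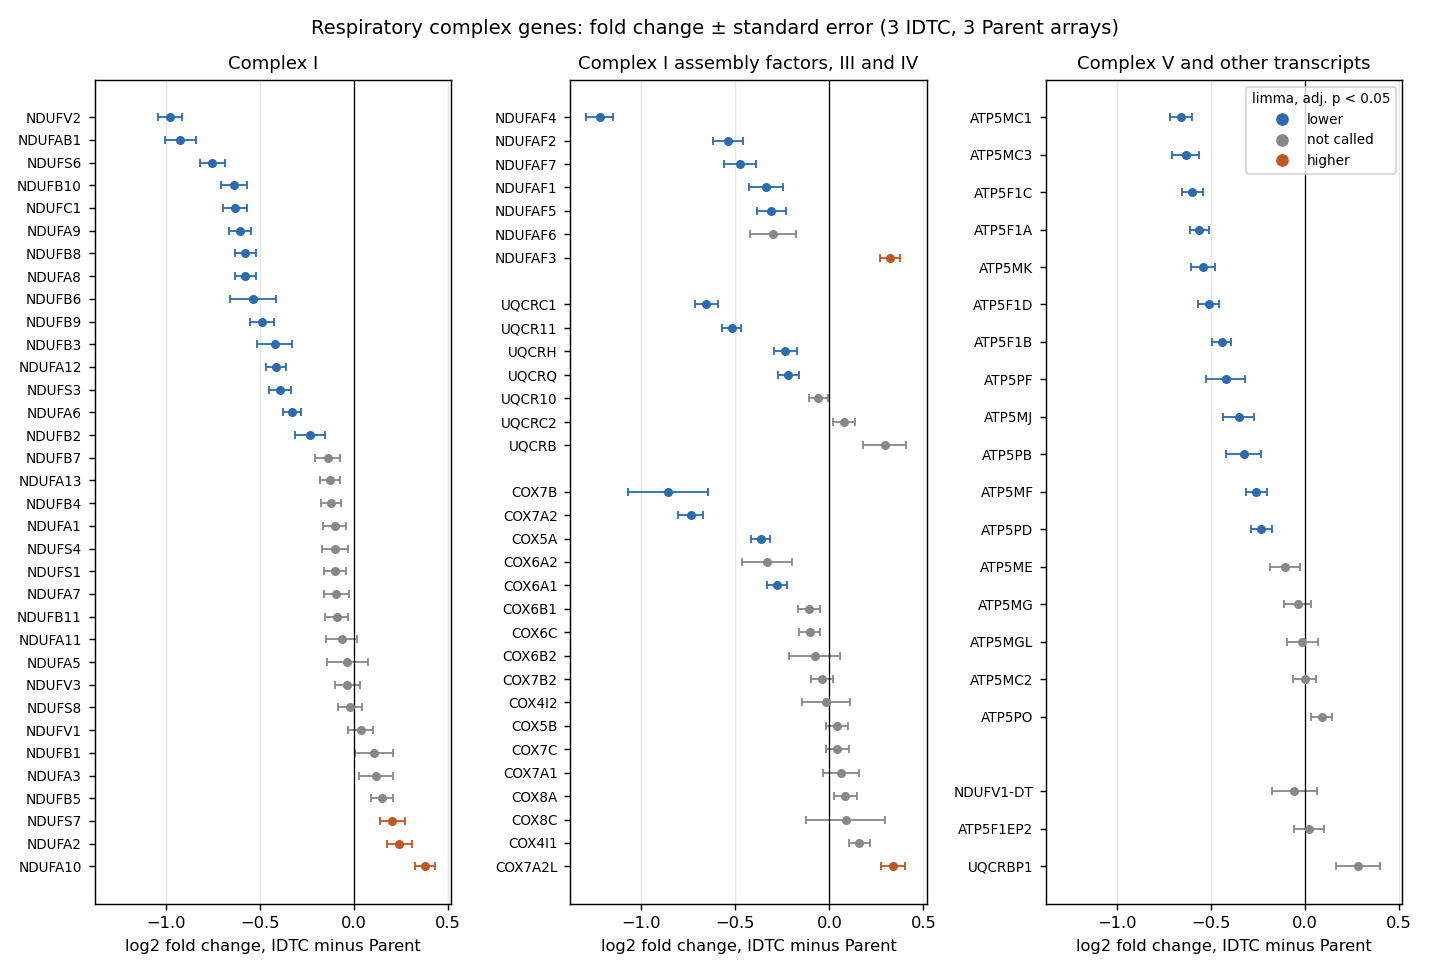
Log2 fold change (IDTC minus Parent, x axis) of each of the 85 members, with bars for the standard error and colours for the limma call. Most points lie left of 0, from NDUFAF4 at -1.22 to NDUFA10 at 0.38, and the called increases are 5 genes.

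The share of genes that fell varied from complex to complex. It was highest in complex V, with 12 of 17 lower and none higher (median -0.35). In complex III 4 of 7 fell (median -0.22), in complex I 15 of 34 fell and 3 rose (median -0.12), and in complex IV 4 of 17 fell and 1 rose (median -0.04). As shares, 70.6% of complex V, 57.1% of complex III, 44.1% of complex I and 23.5% of complex IV genes fell, against 24.9% of all genes and 39.6% of the brighter genes. Complex IV thus lay at the share of all genes, with its 6 tissue-restricted genes counted in, none of which was called. Of its 11 ubiquitous genes 36.4% fell and 9.09% rose (median -0.11). Of the 7 complex I assembly factors, 5 fell and 1 rose (median -0.34). No test was made of the difference between complexes, because genes are not replicates. The median of complex IV was near 0 and its sign was not fixed, at 0.03 after re-centring the arrays, 0.01 without IDTC 1, -0.12 without IDTC 3 and -0.11 without the dimmest genes.

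As deposited, the medians of complexes I, III and V lay below those of the Parent arrays on every IDTC array. Relative to each gene's Parent mean, the median of the complex V genes was -0.33, -0.35 and -0.47 on the 3 IDTC arrays and 0.00, -0.01 and 0.01 on the Parent arrays. For complex I it was -0.19, -0.12 and -0.12 on IDTC arrays and 0.01, -0.03 and 0.03 on Parent arrays. For complex IV it was -0.11, -0.07 and -0.03 on IDTC arrays and -0.05, -0.01 and 0.05 on Parent arrays, so that the groups overlapped. The complex III medians were -0.17, -0.21 and -0.23 on IDTC arrays and 0.06, -0.03 and -0.02 on Parent arrays. The median fold changes of all complexes depended on the scaling, since re-centring moves every fold change by the same amount. That of complex V was -0.35 as deposited, -0.29 after re-centring and -0.28 after quantile normalization. That of complex I was -0.06 after re-centring and -0.03 after quantile normalization, where all genes stood at 0.05 and -0.01. That of complex III was -0.15 after re-centring and -0.12 after quantile normalization.

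**Figure D2:**
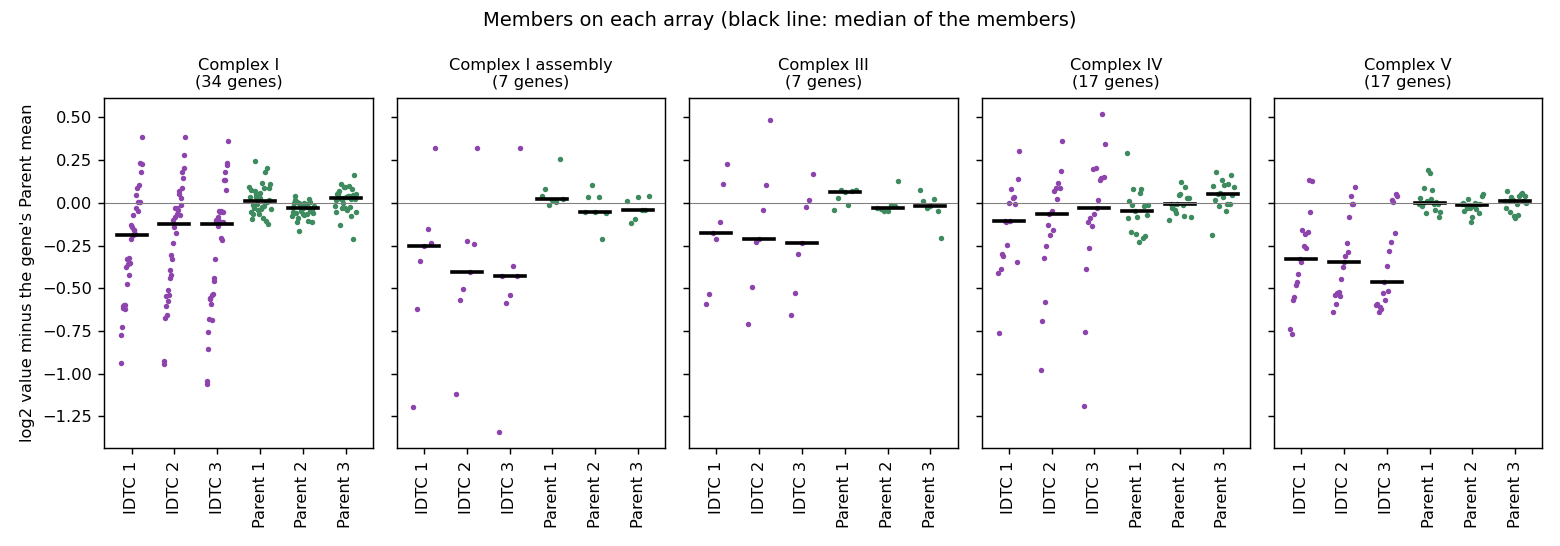
Each dot is 1 gene on 1 array, as its log2 value minus that gene's mean over the Parent arrays, by complex, with the IDTC arrays on the left and the Parent arrays on the right of each panel. The black line is the median of the genes, which lies between -0.33 and -0.47 for complex V on IDTC arrays and overlaps between the groups for complex IV.

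Complex I oxidises NADH on its peripheral arm, which carries the flavin and the iron-sulfur clusters, and pumps protons with its membrane arm. Its 6 measured core subunit genes had a median of -0.06, and 2 of them fell (33.3%) and 1 rose. Over all genes 24.9% fell, and among the brighter genes 39.6% did. NDUFV2, an iron-sulfur core subunit of the NADH-oxidising part, had values of 9.09, 9.08 and 8.98 on IDTC arrays and 10.12, 9.95 and 10.01 on Parent arrays. Every IDTC array lay below every Parent array, and NDUFV2 fell by 0.98 ± 0.07 (1.97-fold, limma adjusted p = 1.56e-05). A second NDUFV2 probe set differed from the first by at most 0.06 on any array and gave the same shift of -0.98. With values this close both may read the same sequence, so the second is not counted as a separate measurement. NDUFS3, a core subunit near the ubiquinone site, had 10.16, 10.27 and 10.14 on IDTC arrays and 10.57, 10.55 and 10.61 on Parent arrays (fell by 0.39 ± 0.06, adjusted p = 0.00103). NDUFS7, which carries the iron-sulfur cluster next to ubiquinone, averaged 7.98 ± 0.02 in IDTC and 7.77 ± 0.10 in Parent cells, without overlap. It rose by 0.21 ± 0.07 (adjusted p = 0.0358), and this call was lost without any of IDTC 1, IDTC 2, IDTC 3, Parent 2 or Parent 3 (adjusted p = 0.0653 to 0.110).

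The other core subunit genes were close in both groups. NDUFV1, which binds NADH and the flavin, averaged 9.97 ± 0.09 in IDTC and 9.93 ± 0.05 in Parent cells (SD, n = 3 each). NDUFS1, an iron-sulfur subunit, averaged 9.48 ± 0.06 in IDTC and 9.58 ± 0.04 in Parent cells. NDUFS8, also an iron-sulfur subunit, averaged 8.97 ± 0.03 in IDTC and 8.99 ± 0.09 in Parent cells. NDUFV2 and NDUFV1, which sit together in the NADH-oxidising part, had fold changes of -0.98 ± 0.07 and 0.04 ± 0.07.

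The 28 accessory subunit genes of complex I had a median of -0.13, and 13 of them fell (46.4%) and 2 rose (7.14%). Over all genes 24.9% fell and 21.7% rose, and among the brighter genes 39.6% and 29.6% did. NDUFAB1 encodes the mitochondrial acyl carrier protein, which also serves fatty acid synthesis. Its values were 7.75, 7.60 and 7.47 on IDTC arrays and 8.56, 8.47 and 8.55 on Parent arrays, without overlap (fell by 0.92 ± 0.08, 1.89-fold, adjusted p = 6.01e-05). NDUFS6, a zinc-binding subunit of the peripheral arm, had 7.86, 7.91 and 7.74 on IDTC arrays and 8.67, 8.57 and 8.53 on Parent arrays (fell by 0.75 ± 0.07, adjusted p = 7.59e-05). Both genes were lower on each IDTC array than on any Parent array. The accessory genes of the membrane arm named NDUFB and NDUFC fell in 7 of 12 cases (58.3%) and rose in none (median -0.33). They include NDUFB10 (-0.64 ± 0.07), NDUFC1 (-0.63 ± 0.06), NDUFB8 (-0.58 ± 0.06) and NDUFB9 (-0.49 ± 0.06).

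The NDUFA accessory genes went both ways, with 5 of 13 lower (38.5%) and 2 higher (15.4%, median -0.10). Their share lower was near the 39.6% of the brighter genes. NDUFA9 (-0.61 ± 0.06), NDUFA8 (-0.57 ± 0.05), NDUFA12 (-0.41 ± 0.05) and NDUFA6 (-0.33 ± 0.05) fell besides NDUFAB1. NDUFA10, a membrane-arm subunit of the nucleoside kinase family, had 8.27, 8.27 and 8.25 on IDTC arrays and 7.85, 7.86 and 7.94 on Parent arrays. It was higher on every IDTC array and rose by 0.38 ± 0.05 (1.30-fold, adjusted p = 6.51e-04). NDUFA2, an accessory subunit of the NADH-oxidising part, had 9.53, 9.59 and 9.53 on IDTC arrays and 9.42, 9.25 and 9.25 on Parent arrays. It rose by 0.24 ± 0.07 (adjusted p = 0.0174), a call lost without IDTC 2, Parent 2 or Parent 3 (adjusted p = 0.0618 to 0.0691). The call of NDUFB2 (-0.23 ± 0.08, adjusted p = 0.0461) was lost under 7 of 12 alternatives.

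Assembly factors guide the stepwise building of complex I and are not part of the finished enzyme. NDUFAF4 had 9.42, 9.49 and 9.27 on IDTC arrays and 10.66, 10.56 and 10.62 on Parent arrays. The groups were well apart, and NDUFAF4 fell by 1.22 ± 0.07 (2.33-fold, adjusted p = 8.04e-06), the largest fold change among the 85 members. NDUFAF3, whose protein binds that of NDUFAF4 early in assembly, had 9.80 on each of the 3 IDTC arrays and 9.50, 9.42 and 9.52 on Parent arrays (rose by 0.32 ± 0.05, adjusted p = 0.00170). NDUFAF4 minus NDUFAF3 within an array shifted by -1.54, with an SD of 0.11 in IDTC and 0.03 in Parent cells. NDUFAF2, a late-acting factor, averaged 6.87 ± 0.10 in IDTC and 7.41 ± 0.11 in Parent cells (fell by 0.54 ± 0.08, adjusted p = 8.74e-04). NDUFAF7, an arginine methyltransferase, averaged 8.10 ± 0.13 in IDTC and 8.58 ± 0.10 in Parent cells (fell by 0.48 ± 0.08, adjusted p = 0.00244). NDUFAF1 (-0.34 ± 0.09) and NDUFAF5 (-0.31 ± 0.08), which hydroxylates the NDUFS7 protein, also fell, and NDUFAF6 was not called (-0.30 ± 0.12). The call of NDUFAF1 was lost without Parent 1 or Parent 3 and that of NDUFAF5 without Parent 2, with adjusted p no higher than 0.0691.

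Complex III transfers electrons from ubiquinol to cytochrome c. UQCRC1, one of its large core proteins on the matrix side, had 7.60, 7.48 and 7.53 on IDTC arrays and 8.14, 8.16 and 8.26 on Parent arrays. It was lower on each IDTC array and fell by 0.65 ± 0.06 (1.57-fold, adjusted p = 8.12e-05). The other core protein gene, UQCRC2, averaged 10.97 ± 0.05 in IDTC and 10.89 ± 0.06 in Parent cells (0.08 ± 0.06, adjusted p = 0.342). Among the small subunits, UQCR11 had 7.99, 8.02 and 7.99 on IDTC arrays and 8.55, 8.48 and 8.53 on Parent arrays (fell by 0.52 ± 0.05, adjusted p = 1.05e-04). UQCRH, the hinge protein at the cytochrome c1 side, averaged 6.73 ± 0.06 in IDTC and 6.97 ± 0.06 in Parent cells (fell by 0.23 ± 0.06, adjusted p = 0.0161). UQCRQ fell by 0.22 ± 0.05. After re-centring, the calls of UQCRH (adjusted p = 0.0518) and UQCRQ were lost, which leaves 2 of 7 genes lower, and that of UQCRQ was also lost after quantile normalization (highest adjusted p 0.0885).

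UQCRB, a small subunit, had the highest fold change of complex III, at 0.29 ± 0.12 (adjusted p = 0.0784), and was called higher after re-centring, without the dimmest genes and with the replicate block (lowest adjusted p 0.0154). The probe set of its pseudogene UQCRBP1 gave 0.28 ± 0.12. A gene and its processed copy share sequence, so their signals may not be separate. UQCR10 was at -0.06 ± 0.05.

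Complex IV, cytochrome c oxidase, passes electrons to oxygen, and several of its nuclear subunits exist as ubiquitous and tissue-restricted forms. Its 11 ubiquitous subunit genes included 4 that fell (36.4%) and 1 that rose (9.09%). Over all genes 24.9% fell and 21.7% rose, and among the brighter genes 39.6% and 29.6% did. COX7A2 had 8.34, 8.41 and 8.34 on IDTC arrays and 9.01, 9.09 and 9.20 on Parent arrays (fell by 0.74 ± 0.07, 1.67-fold, adjusted p = 6.42e-05). COX7B had 7.52, 6.95 and 6.74 on IDTC arrays and 8.22, 7.82 and 7.74 on Parent arrays. Its arrays were the most scattered of the called members, and it fell by 0.86 ± 0.21 (adjusted p = 0.0120). COX5A had 10.95, 11.01 and 10.95 on IDTC arrays and 11.35, 11.31 and 11.35 on Parent arrays (fell by 0.37 ± 0.05, adjusted p = 7.07e-04), and COX6A1 fell by 0.28 ± 0.05 (adjusted p = 0.00382). COX7A2L, related to the COX7A subunits and known to join complexes III and IV into supercomplexes, had 9.84, 9.90 and 9.88 on IDTC arrays and 9.53, 9.45 and 9.63 on Parent arrays. It was higher on every IDTC array and rose by 0.34 ± 0.06 (1.26-fold, adjusted p = 0.00306).

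The remaining ubiquitous genes were not called, among them COX5B (0.04 ± 0.06), COX7C (0.04 ± 0.06), COX6B1 (-0.11 ± 0.06), COX6C (-0.11 ± 0.06) and COX8A (0.08 ± 0.06). COX4I1, the ubiquitous form of subunit 4, had 8.86, 8.91 and 8.87 on IDTC arrays and 8.64, 8.75 and 8.76 on Parent arrays. Its groups did not overlap and its adjusted p was 0.0511 (0.16 ± 0.06), and it was called under 4 alternatives (adjusted p = 0.0111 to 0.0306). COX8A was called after quantile normalization (0.21, adjusted p = 0.0321).

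None of the 6 tissue-restricted complex IV genes was called by limma, and 1 of them, COX6A2, had an unadjusted p under 0.05. COX6A2 and COX7A1 are the heart and skeletal muscle forms of their subunits. COX6A2 averaged 6.84 ± 0.23 in IDTC and 7.17 ± 0.18 in Parent cells (-0.33 ± 0.13, adjusted p = 0.0839), and was called without IDTC 3 (adjusted p = 0.0356) and with the replicate number as a block (0.0254). COX7A1 averaged 5.36 ± 0.06 in IDTC and 5.30 ± 0.18 in Parent cells. COX4I2, a form induced by low oxygen, averaged 5.85 ± 0.19 in IDTC and 5.87 ± 0.20 in Parent cells. The testis forms COX6B2 (-0.08 ± 0.13), COX7B2 (-0.04 ± 0.06) and COX8C (0.09 ± 0.21) had values of 3.92 to 5.12 on all arrays. The table has no detection call, so whether these genes lay above background is unknown.

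Complex V has a catalytic F1 head in the matrix, a membrane part with a rotating ring of subunit c, and a peripheral stalk that holds the head still. All 4 measured F1 genes fell (median -0.54), and the epsilon subunit gene ATP5F1E was not among the members. The probe set of its copy ATP5F1EP2, which may also read ATP5F1E, was not called (0.02 ± 0.08). ATP5F1A, the alpha subunit, had 9.67, 9.70 and 9.62 on IDTC arrays and 10.22, 10.21 and 10.24 on Parent arrays (fell by 0.56 ± 0.05, adjusted p = 7.36e-05). ATP5F1B, the catalytic beta subunit, had 12.01, 11.99 and 11.96 on IDTC arrays and 12.44, 12.40 and 12.45 on Parent arrays (fell by 0.44 ± 0.05, adjusted p = 2.29e-04). ATP5F1C, the gamma subunit of the rotor, had 10.39, 10.36 and 10.32 on IDTC arrays and 10.94, 10.91 and 11.02 on Parent arrays (fell by 0.60 ± 0.06, adjusted p = 8.64e-05). ATP5F1D, the delta subunit, fell by 0.51 ± 0.06. For each of the 4 measured F1 genes the groups were separate, and the changes lay within 1.36-fold to 1.52-fold. Over all genes 24.9% fell, and among the brighter genes 39.6% did. The groups did not overlap for 54.1% of all genes.

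Of the 4 stalk genes 3 fell (75%), namely ATP5PF (-0.42 ± 0.10), ATP5PB (-0.33 ± 0.09) and ATP5PD (-0.23 ± 0.06). ATP5PO, the oligomycin sensitivity protein that joins stalk and head, averaged 8.59 ± 0.04 in IDTC and 8.51 ± 0.05 in Parent cells (0.09 ± 0.06, adjusted p = 0.253). The call of ATP5PB was lost without IDTC 2 or any 1 Parent array (highest adjusted p 0.0626) and that of ATP5PD after quantile normalization (0.104). Of the 9 genes of the membrane part 5 fell (55.6%), among them ATP5MK (-0.54 ± 0.07), ATP5MJ (-0.35 ± 0.08) and ATP5MF (-0.26 ± 0.06). For comparison, 24.9% of all genes and 39.6% of the brighter genes fell. ATP5ME (-0.11 ± 0.08), ATP5MG (-0.04 ± 0.07) and ATP5MGL (-0.02 ± 0.08) were not called.

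Subunit c is encoded by 3 genes that give the same mature protein with different import sequences. ATP5MC1 had 12.05, 12.14 and 12.19 on IDTC arrays and 12.78, 12.78 and 12.80 on Parent arrays (fell by 0.66 ± 0.06, 1.58-fold, adjusted p = 5.91e-05). ATP5MC3 had 5.93, 6.16 and 6.11 on IDTC arrays and 6.73, 6.70 and 6.67 on Parent arrays (fell by 0.63 ± 0.07, adjusted p = 2.23e-04). ATP5MC2 had 9.38, 9.42 and 9.48 on IDTC arrays and 9.35, 9.47 and 9.47 on Parent arrays, with overlapping groups (adjusted p = 0.975). Within an array, ATP5MC1 minus ATP5MC2 shifted by -0.66 (SD 0.03 in IDTC and 0.07 in Parent) and ATP5MC3 minus ATP5MC2 by -0.63 (SD 0.09 in IDTC and 0.10 in Parent). COX7A2 minus COX7A2L shifted by -1.07 (SD 0.03 in IDTC and 0.08 in Parent). These pairs, with NDUFAF4 and NDUFAF3, each had an exact permutation p of 0.1 (2-sided, 3 against 3 arrays), the smallest this design allows, and 0.14 after adjustment over the 7 pairs. The other 2 pairs, COX6A1 with COX6A2 (0.05, p = 0.8) and COX4I1 with COX4I2 (0.18, p = 0.2), gave exact permutation p-values above that. The pair of COX7A2 with COX7A1 is not read, because whether COX7A1 lay above background is unknown, and the same limit holds for COX4I2. ATP5MC3, at 5.93 to 6.73 on the 6 arrays, was also dim and has no detection call. Its shift against ATP5MC2 is therefore read with caution. The pairs were chosen with the values known, and no pair could give a permutation p under 0.05. These p-values are therefore not read as a difference between the pairs.

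**Figure D3:**
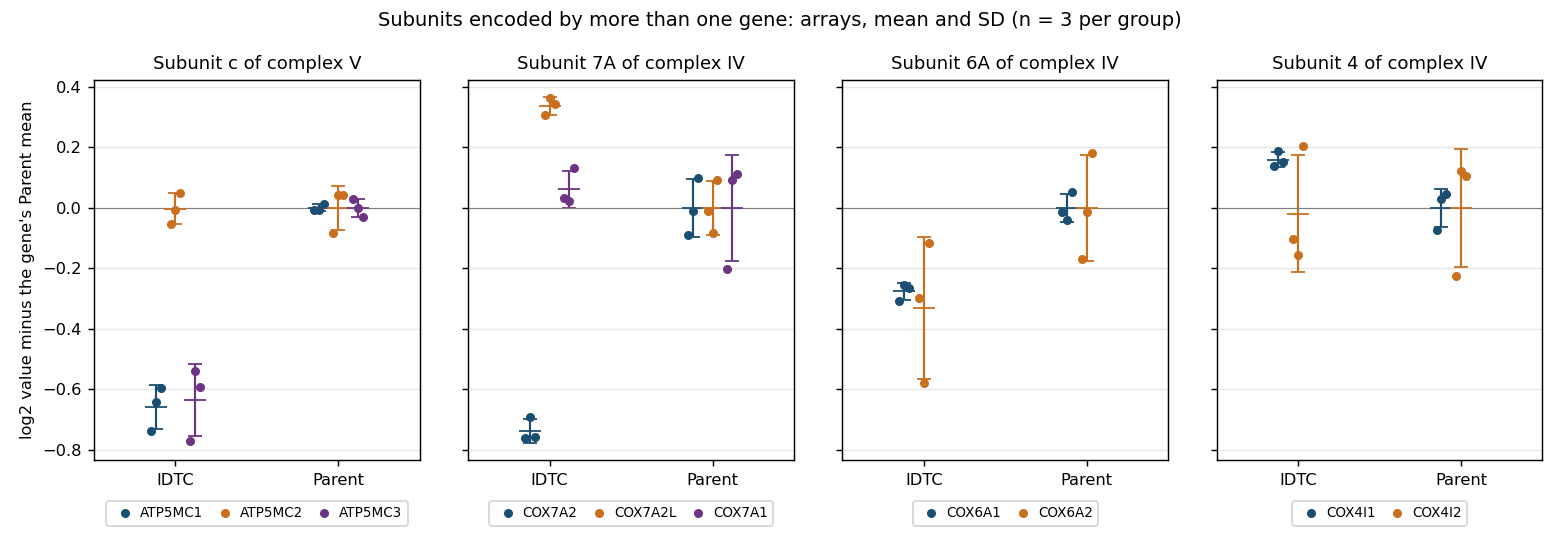
Log2 value minus the gene's Parent mean for genes of the same or related subunits, with 3 IDTC arrays left and 3 Parent arrays right in each panel (dots), the mean (dash) and SD (bars). ATP5MC1 and ATP5MC3 average -0.66 and -0.63 in IDTC while ATP5MC2 lies near 0, and COX7A2 and COX7A2L lie on opposite sides of 0.

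The promoters of the members were read for motifs that are known for respiratory genes. NRF1 and the ETS factor GABP are transcription factors that bind many of these promoters, and the letters searched on both strands were GCGC, any 2 bases and GCGC for NRF1 and CCGGAAG for the ETS family. The window ran from 250 bases before to 50 after the first start listed for each gene in the RefSeq table of GRCh38.p14, which held 71 of the 85 members. The NRF1 letters stood in 16 of the 71 members (22.5%) and in 12.5% of the 14237 promoters of genes tested on the arrays. The ETS letters stood in 19 members (26.8%) and in 14.6% of those promoters. Among the 35 members that fell, 9 held the NRF1 letters and 9 the ETS letters, and among the 31 that were not called, 7 and 10 did. None of the 5 that rose held either. Over all genes tested, 17.1% of those that fell, 14.1% of those that rose and 9.37% of those not called held the NRF1 letters. The ETS letters stood in 20.9%, 16% and 10.7% of the same groups. With 5 genes, nothing is read from the count of 0. A match of letters is a description and does not show that a factor binds there.

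The 250 bases before the start are printed below for 6 genes, in lower case with the NRF1 or ETS letters in capitals. The first 5 are, for each complex and for the assembly factors, the gene with the lowest fold change among those that fell and carry a match in these bases, and NDUFA10 is the member that rose most. They show a single NRF1 match in NDUFB10, UQCRC1 and ATP5F1C and a single ETS match in NDUFAF4 and, on the other strand, in COX6A1. NDUFA10 has none. All coordinates are GRCh38.p14 and each sequence reads 5′ to 3′ along its gene.
NDUFB10 (chr16:1959288-1959537, + strand): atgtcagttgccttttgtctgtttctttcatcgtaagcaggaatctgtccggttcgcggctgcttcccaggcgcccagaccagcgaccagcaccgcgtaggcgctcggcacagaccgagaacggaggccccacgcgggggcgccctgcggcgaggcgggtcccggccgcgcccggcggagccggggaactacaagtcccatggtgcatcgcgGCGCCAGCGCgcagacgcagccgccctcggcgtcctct
NDUFAF4 (chr6:96897892-96898141, - strand): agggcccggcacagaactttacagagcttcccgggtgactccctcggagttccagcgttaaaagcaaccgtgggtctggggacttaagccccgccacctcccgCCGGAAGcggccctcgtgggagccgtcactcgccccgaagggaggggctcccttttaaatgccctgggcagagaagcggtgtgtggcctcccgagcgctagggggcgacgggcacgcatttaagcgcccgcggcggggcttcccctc
UQCRC1 (chr3:48609647-48609896, - strand): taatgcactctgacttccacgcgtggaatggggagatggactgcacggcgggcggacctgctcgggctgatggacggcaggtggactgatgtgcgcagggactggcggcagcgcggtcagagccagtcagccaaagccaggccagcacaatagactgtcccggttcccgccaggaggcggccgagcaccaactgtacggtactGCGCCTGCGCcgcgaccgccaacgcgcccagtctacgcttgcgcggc
COX6A1 (chr12:120437863-120438112, + strand): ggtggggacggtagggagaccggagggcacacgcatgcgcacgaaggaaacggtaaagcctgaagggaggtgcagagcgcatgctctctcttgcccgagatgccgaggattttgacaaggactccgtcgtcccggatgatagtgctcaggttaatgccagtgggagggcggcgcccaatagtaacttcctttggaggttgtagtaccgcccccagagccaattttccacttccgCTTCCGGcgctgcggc
ATP5F1C (chr10:7787927-7788176, + strand): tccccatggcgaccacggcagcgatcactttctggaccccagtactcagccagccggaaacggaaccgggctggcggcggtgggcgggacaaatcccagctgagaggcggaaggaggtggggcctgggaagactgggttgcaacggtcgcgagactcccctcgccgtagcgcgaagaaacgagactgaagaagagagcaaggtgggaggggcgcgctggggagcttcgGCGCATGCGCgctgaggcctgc
NDUFA10 (chr2:240025343-240025592, - strand): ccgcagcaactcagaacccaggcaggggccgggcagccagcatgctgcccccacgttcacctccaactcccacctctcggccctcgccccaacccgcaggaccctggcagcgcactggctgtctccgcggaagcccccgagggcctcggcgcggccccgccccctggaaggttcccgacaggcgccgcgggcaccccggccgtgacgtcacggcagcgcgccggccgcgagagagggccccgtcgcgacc

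The matches in NDUFB10, UQCRC1, COX6A1 and ATP5F1C lie within the last 50 bases before the start, and the match in NDUFAF4 stands farther upstream. Of the pair with an ETS match, COX6A1 fell by 0.28 and NDUFAF4 by 1.22.

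Genes that serve the complexes but fall outside the name rule were counted in lists that were drawn up with earlier results known. Of 36 further assembly factor genes 19 fell (52.8%) and 3 rose (8.33%), with a median of -0.23, against 24.9% and 21.7% of all genes and 39.6% and 29.6% of the brighter genes. COA6 and COA7, which serve complex IV assembly, fell by 1.06 ± 0.08 and 1.05 ± 0.09. COA5, another complex IV assembly gene, had 7.93, 8.04 and 7.97 on IDTC arrays and 7.02, 6.94 and 6.93 on Parent arrays, and rose by 1.02 ± 0.06 (2.02-fold, adjusted p = 7.21e-06). The change of COA5 was larger than that of any respiratory complex gene that rose.

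Of 19 genes of complex II, ubiquinone synthesis and electron carriers, 9 fell (47.4%) and 3 rose (15.8%), with a median of -0.22. Over all genes 24.9% fell and 21.7% rose, and among the brighter genes 39.6% and 29.6% did. Of the complex II genes in this list, SDHC fell by 0.22 ± 0.05, and SDHA (-0.13 ± 0.06) and SDHD (-0.13 ± 0.05) were not called. PDSS1, which makes the side chain of ubiquinone, had 7.54, 7.54 and 7.31 on IDTC arrays and 9.75, 9.40 and 9.68 on Parent arrays (fell by 2.15 ± 0.11, 4.44-fold, adjusted p = 4.22e-06). COQ3, a methyltransferase of the same pathway, fell by 1.00 ± 0.12. CYC1, the cytochrome c1 subunit of complex III that the name rule leaves out, averaged 9.43 ± 0.07 in IDTC and 10.26 ± 0.11 in Parent cells (fell by 0.83 ± 0.07, adjusted p = 5.97e-05). CYCS, cytochrome c itself, averaged 8.41 ± 0.11 in IDTC and 9.40 ± 0.22 in Parent cells.

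Among 17 regulators of mitochondrial gene expression 11 fell (64.7%) and 3 rose (17.6%), where 24.9% and 21.7% of all genes and 39.6% and 29.6% of the brighter genes did. TFB1M, the methyltransferase of mitochondrial ribosomal RNA, fell by 2.21 ± 0.11, TFB2M, the initiation factor of mitochondrial transcription, by 1.31 ± 0.05 and TWNK, the mitochondrial DNA helicase, by 1.16 ± 0.09. PPARGC1A, the coactivator of respiratory genes, had 8.32, 8.29 and 8.28 on IDTC arrays and 7.95, 7.79 and 7.80 on Parent arrays and rose by 0.45 ± 0.06 (1.37-fold, adjusted p = 6.64e-04). NRF1, whose motif was searched above, rose by 0.30 ± 0.07 (limma adjusted p = 0.00744). The GABP genes GABPA (0.21 ± 0.09) and GABPB1 (-0.08 ± 0.08) were not called. The part of these factors in the changes of the members was not tested. The subunits encoded in mitochondrial DNA were not analysed here.

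**Figure D4:**
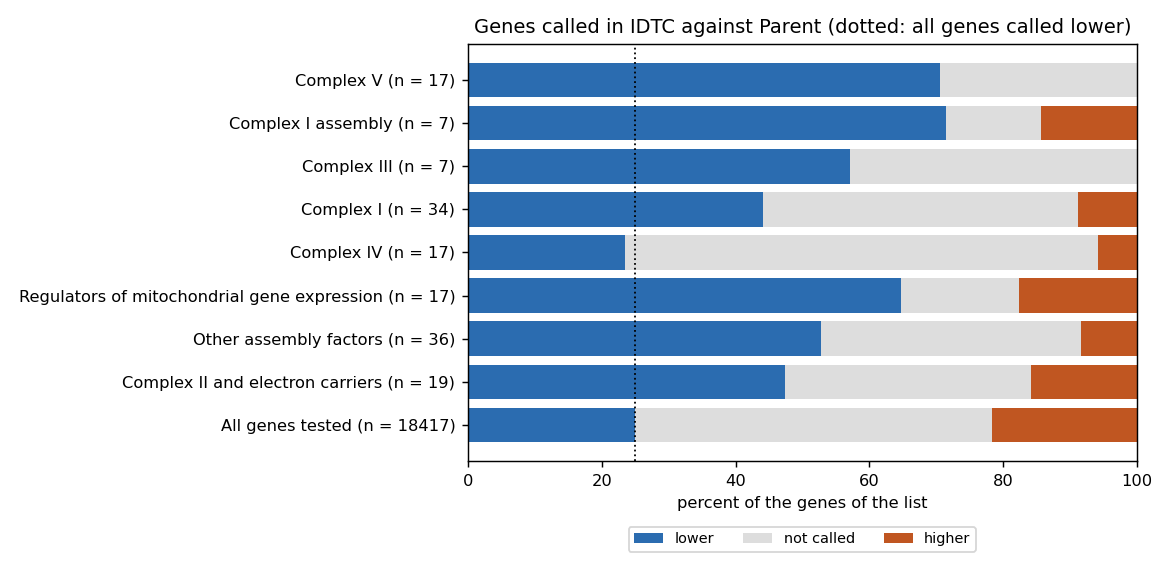
Share of genes called lower (blue), not called (grey) and called higher (orange) in IDTC against Parent, for each complex, 3 lists of related genes and all 18417 genes tested. Complex V and the complex I assembly factors have the largest blue shares (70.6% and 71.4%), and complex IV (23.5%) lies next to the dotted line of all genes (24.9%). The complex IV bar includes 6 tissue-restricted genes, none of which was called.

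Values of several members rest on probe sets that may read more than one gene. For 6 members 2 probe sets were annotated. Those of ATP5MK, COX6A1, NDUFAF2 and NDUFV2 gave shifts of the same sign, and those of NDUFB4 held identical values on every array. The dimmer NDUFS4 probe set differed in sign from the brighter one (0.21 and -0.10). ATP5F1EP2 (0.02 ± 0.08) is a copy of an F1 subunit gene, and its signal and that of its parent gene cannot be told apart here. Neither ATP5F1EP2 nor NDUFV1-DT (-0.06 ± 0.12) was called.

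The medians of the complexes were compared over 12 alternative settings of the processing. That of complex V lay between -0.28 and -0.41 and that of the assembly factors between -0.27 and -0.41. The medians of complexes I, III and V and of the assembly factors all moved toward 0 when the arrays were rescaled. Re-centring moved each of them by the same amount.

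**Figure D5:**
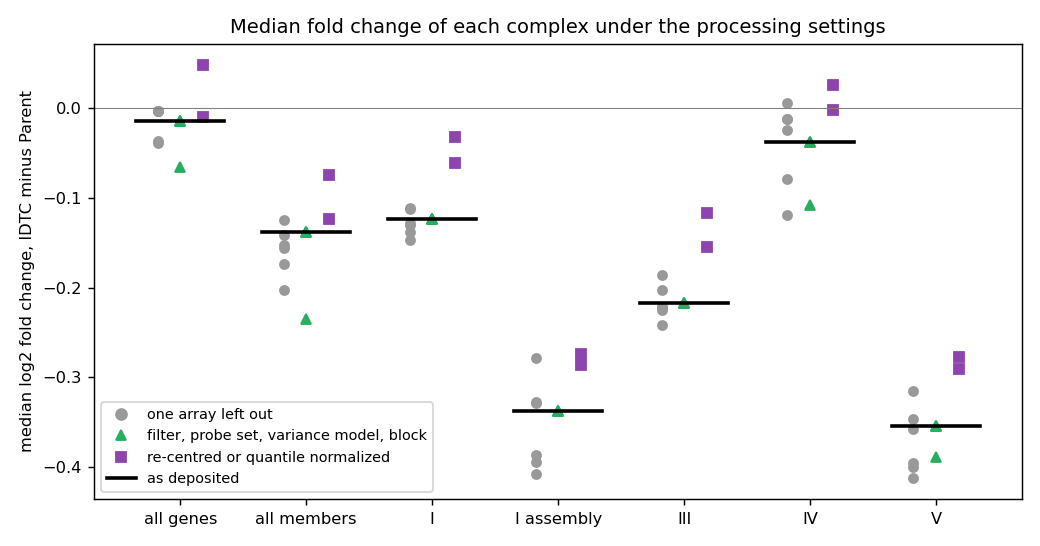
Median log2 fold change (IDTC minus Parent, y axis) of all genes, all members and each complex as deposited (black line), with 1 array left out (circles), under another filter, probe set rule, variance model or replicate block (triangles) and after re-centring or quantile normalization (squares). The complex V values reach no higher than -0.28, and the complex IV values spread on both sides of 0.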

How the data were processed

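RNA of 6 WM164 samples (3 IDTC, 3 Parent) was measured on whole-transcript arrays. The values were deposited as log2 expression for 33297 probe sets, already normalized by the authors. Affymetrix Expression Console, RMA and Partek 6.6 appear in the submitters' processing notes, with no role or order. No genome build is given in the sources used here. The interquartile range was 3.31 to 3.49 on IDTC and 3.51 to 3.60 on Parent arrays. The number of arrays limits the precision.

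Groups were read from the sample titles. Names came from the platform annotation (19460 probe sets with 1 symbol, 1754 with several, 12083 not listed). All 85 members matched a RefSeq record by gene number, and no symbol changed. Another 7 probe sets carried a member's name beside other symbols and were not used. One probe set per gene entered limma 3.58.1 in R 4.3.3 (lmFit, eBayes, 2-sided, no covariates, no filter), fitted on all 18417 genes. Tested on simulated data for this comparison (18417 genes, 50 changed genes per size), the fit called 10% of genes changed by 0.25 log2, 56% at 0.5, 90% at 1 and 100% at 2, with 11 unchanged genes called. The simulation changed a far smaller share of genes than the 46.6% called in the data. Its adjusted cut-off was therefore stricter, and these rates do not give the sensitivity of the real comparison.

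The members and the gene lists were chosen with earlier results of these data known. The genes given in full were the 3 called members farthest in each direction per complex, the core subunits of complex I, the genes of shared subunits and up to 3 genes of each other list, with CYC1, CYCS and PPARGC1A always. ATP5F1A and ATP5F1B, the alpha and beta subunits, fall outside this rule and were added after their values were seen. Other members were named to account for each complex, and NRF1, GABPA and GABPB1 because their motifs were searched. The alternatives were re-centring, quantile normalization, a filter on dim genes, the mean of probe sets, trend and robust eBayes, the replicate number as a block and leaving out each array.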

Additional observations from a re-analysis of the deposited data

How the results depend on the processing

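Of the 45 called members, 36 kept their call under all 12 alternatives in which they were fitted (33 lower and 3 higher), and none changed sign under any of them. Another 10 members that were not called gained a call under at least 1 alternative. The number of members that rose was 9 after re-centring, 10 after quantile normalization, 8 without the dimmest genes and 3 to 6 with 1 array left out. The number that fell was 37 to 41 with 1 array left out. Of all genes 26.3% rose after re-centring, 24.5% after quantile normalization and 29.6% without the dimmest genes. With 1 array left out, 21.6% to 26.2% of all genes fell and 18.25% to 22.0% rose. Re-centring moved the median of the members to -0.075, that of complex I to -0.0609, that of complex III to -0.155 with 2 genes lower and 1 higher, and that of complex IV to 0.0254. Quantile normalization moved the medians of complexes I, III and V to -0.032, -0.116 and -0.277. Without the dimmest genes the median was -0.23 over the members and -0.11 in complex IV. With 1 array left out, the median ranged from -0.20 to -0.13 over the members and from -0.119 to 0.0058 in complex IV. Re-centring adds the same amount to every fold change. Apart from this and from the smaller set of genes under the filter, the cause of these shifts was not tested. Deviations from the group means correlated between same-numbered arrays at r = 0.31, -0.19 and 0.26. With 3 arrays per group these values cannot decide whether the numbers pair the samples. With the replicate block 42 members fell (49.4%) and 7 rose (8.24%), where 25.6% and 22.5% of all genes did. The table holds no detection call, which limits what can be said of dim genes.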
